A study of Danio rerio with 11 samples.

Results

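Stage II oocytes were set against stage I oocytes of zebrafish mutant for the small zinc finger gene znf706. The comparison used all 4 mutant libraries of the 8 RNA-seq libraries of the series, 2 at stage II (about 150 oocytes each) and 2 at stage I (about 600 oocytes each). The genotype is given as MZznf706 and the allele as tsu7d, made with CRISPR/Cas9. WT libraries of the same stages, 2 at stage II and 2 at stage I, were used beside them. All fish were 3-month-old juvenile females, whose ovaries were digested with enzymes before oocytes of each stage were collected by pipette, and polyadenylated RNA was sequenced. The series text calls the 2 libraries of a group biological replicates, and nothing in the labels says how many fish were pooled. The 3 CUT&Tag libraries of the series were not analysed here. Of 31952 gene IDs kept from the table, 13062 reached at least 1 FPKM in at least 2 of 4 mutant libraries and were tested. FPKM are fragments counted per kilobase of transcript, scaled to the mapped fragments of the library.

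Zebrafish oocytes grow without dividing. At stage I they enter and arrest in the prophase of meiosis, join a follicle and hold the Balbiani body, the aggregate of RNA, protein and mitochondria that carries the germ plasm. At stage II cortical granules fill the cytoplasm, the egg coat is laid down and the Balbiani body disperses at the vegetal cortex, before yolk is taken up. Many messages made in these stages are stored for the egg and the early embryo.

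The mutant stage II libraries summed to 653659 and 666218 FPKM and the mutant stage I libraries to 873513 and 849613 FPKM. Their 10 highest genes held 3.61% and 3.69% of the sum at stage II, against 10.1% and 9.45% at stage I. The table gives no read counts, so absolute depth is unknown, but the commonest ratio between their lowest values placed the 7 further libraries at 0.909 to 1.07 times the depth of replicate 1 of mutant stage I. Log2 values of the libraries of one group correlated across genes at r = 0.9875 at stage II and r = 0.9896 at stage I, against 0.887 to 0.894 between the stages. Mutant and WT libraries of the same stage correlated at 0.927 to 0.934, so each mutant stage lay closer to the same stage of WT than to the other mutant stage. FPKM are shares of a library, so they describe the makeup of its RNA. Whether an oocyte gained or lost a message cannot be read from them, because the amount of RNA per oocyte is not known.

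Markers of other cells were low, apart from cyp11a1 and the testis marker spata18, both given below. Of 10 granulosa and theca markers, fshr was listed at 0 in all 8 libraries, and amh, star and lhcgr stayed under 0.3 FPKM. Without cyp11a1, described below, the sum of this list was 2.61 and 4.86 FPKM at stage II, against 6.1 and 3.52 FPKM at stage I of mutants. The 11 leukocyte markers summed to 9.18 and 12.8 FPKM at stage II, against 16.3 and 13.8 FPKM at stage I of mutants, and to 1.81 and 3.17 FPKM at stage II, against 4.23 and 5.02 FPKM at stage I of WT. Of these, 5 were tested, 2 rose and 3 fell, and the defining marker ptprc was at 0.176 and 0.0656 FPKM at stage II, against 0.238 and 0.19 FPKM at stage I of mutants. Stroma, muscle and endothelium markers summed to 10.1 and 12.3 FPKM at stage II, against 12.4 and 11.6 FPKM at stage I. The part of such cells in the results was not tested. The oocyte genes figla and buc were high at both stages.

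Between the stages, 9140 of 13062 genes were called (70.0%), 6539 higher at stage II (50.1%) and 2601 lower (19.9%). Calls are adjusted p under 0.05 in limma's moderated test on log2(FPKM + 1), with Benjamini-Hochberg adjustment over all genes tested, and log2 fold changes are stage II minus stage I with their SE, n = 2 libraries each. At least a 2-fold change was called for 2531 higher (19.4%) and 991 lower genes (7.59%). The split moves with the scaling, because the median gene was higher by log2 0.35 at stage II as deposited. After median-of-ratios scaling the median was 0.00, with 4145 genes higher (31.7%) and 4285 lower (32.8%), and after quantile normalization it was 0.07, with 4642 higher (35.5%) and 3632 lower (27.8%). In all 3 scalings 3892 genes were higher and 2329 were lower. The 2 libraries of one stage lay above both libraries of the other for 7796 genes at stage II (59.7%) and 3362 genes at stage I (25.7%), and among the genes given below with their values only mt-atp8, rps15 and gsdf overlapped between the stages. Counts for gene groups are therefore given as deposited and after median-of-ratios scaling, with quantile normalization added for part of the groups. Where it is not printed, its counts can differ from both. Each is to be read against the shares of all genes just given, and a share near those is no result about the group. A gene that reached 1 FPKM at 1 stage only had to differ, as was so for 1310 of the 13062 genes.

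**Figure D1:**
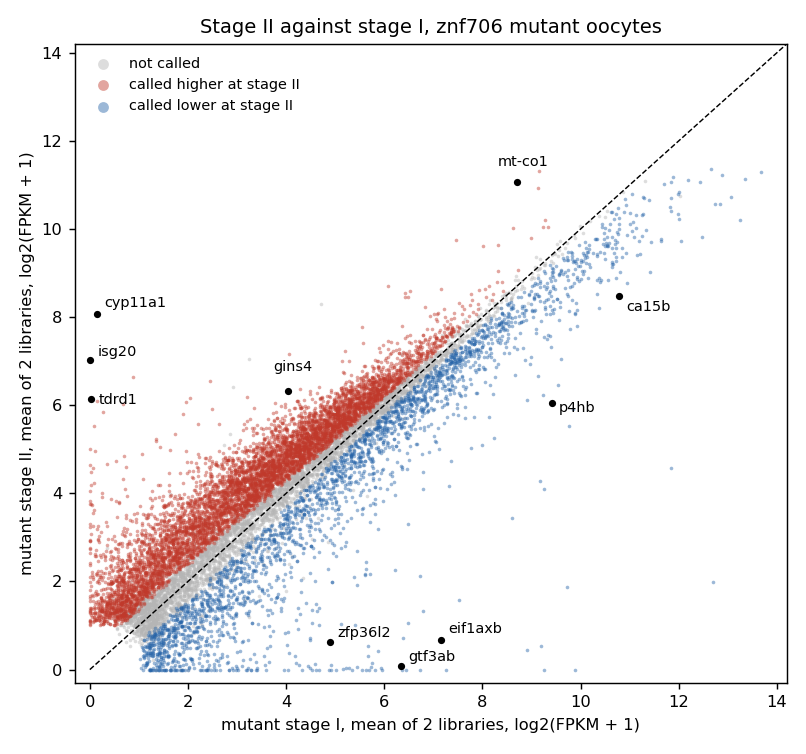
Mean level of each of the 13062 tested genes in mutant stage II libraries (vertical axis) against mutant stage I libraries (horizontal axis), both as log2(FPKM + 1). Red points are the 6539 genes called higher at stage II, blue points the 2601 called lower and grey points the rest, with genes named in the text in black. The dashed line marks equal levels, and the median gene lies above it by log2 0.35.

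The targeted gene znf706 (ENSDARG00000056307) was at 129 and 142 FPKM at stage II, against 181 and 147 FPKM at stage I of mutants. Its log2 fold change of -0.27 ± 0.11 (adjusted p = 0.048) is barely past the threshold, and without mutant stage I replicate 1 the adjusted p is 0.32. In WT it was at 158 and 143 FPKM at stage II, against 232 and 238 FPKM at stage I. The labels do not say which part of the transcript the allele alters, so this level does not test the genotype.

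The largest rise belonged to cyp11a1 (ENSDARG00000002347), the side-chain cleavage enzyme that opens steroid synthesis. It was at 278 and 261 FPKM at stage II, against 0.153 and 0.0626 FPKM at stage I (log2 fold change 7.93 ± 0.17, adjusted p = 2.4e-08). WT oocytes ran the other way, with 53.5 and 82.4 FPKM at stage II and 221 and 203 FPKM at stage I. The gene also marks follicle cells, and of the other markers of these cells foxl2b, a follicle transcription factor gene tested through stage II alone, was at 1.72 and 1.77 FPKM at stage II, against 0.583 and 0.32 FPKM at stage I (log2 fold change 0.93 ± 0.18, adjusted p = 0.0019). The marker gsdf was at 0.839 and 2.79 FPKM at stage II, against 4.42 and 2.33 FPKM at stage I and was not called (adjusted p = 0.1), and the other 7 stayed under 0.5 FPKM in all mutant libraries. The aromatase gene cyp19a1a was at 0 and 0.131 FPKM at stage II, against 0.489 and 0.4 FPKM at stage I, and the cholesterol carrier gene star was at 0 and 0.0691 FPKM at stage II, against 0.129 and 0.125 FPKM at stage I. The part of follicle cells in the rise of cyp11a1 was not tested.

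Other messages were near absent from mutant stage I oocytes and abundant at stage II. The Tudor gene tdrd1, which builds piRNA granules, was at 73.8 and 65.1 FPKM at stage II, against 0.0154 and 0.0203 FPKM at stage I (log2 fold change 6.11 ± 0.11, adjusted p = 1.1e-08). The exonuclease gene isg20 was at 138 and 121 FPKM at stage II and listed at 0 in both stage I libraries (adjusted p = 2e-08), with no fold given against 0. The same pattern held for isg20 in WT, at 37.4 and 31.2 FPKM at stage II and 0 in both stage I libraries. The copper chaperone gene of cytochrome oxidase, cox17, was at 91.9 and 106 FPKM at stage II, against 1.58 and 0.318 FPKM at stage I. The glycosylation gene alg14 was at 42.1 and 49.1 FPKM at stage II, against 0 and 0.112 FPKM at stage I (log2 fold change 5.46 ± 0.13, adjusted p = 4.7e-08). The Sin3 complex gene sap18 and its neighbour ska3, which joins kinetochores to microtubules, rose by log2 5.57 ± 0.18 and 4.30 ± 0.23 (adjusted p = 2.7e-07 and 3.4e-06). In WT cox17, sap18 and ska3 rose as well, but tdrd1 and alg14 ran the other way. There tdrd1 was at 30.6 and 26.5 FPKM at stage II, against 57.1 and 54.4 FPKM at stage I. WT levels of alg14 were 29.3 and 36.8 FPKM at stage II, against 134 and 136 FPKM at stage I.

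Among genes with a characterized name, the largest falls were of messages abundant at stage I and at or near 0 at stage II. The F-box gene fbxl14a was listed at 0 in both stage II libraries, against 99.9 and 109 FPKM at stage I (adjusted p = 7.3e-09). The selenoprotein repair gene msrb1b and the RNase P subunit gene rpp21 were also listed at 0 at stage II, against 95.4 and 77.1 FPKM and 60.1 and 50.8 FPKM at stage I. A gene that most cells use, such as rpp21 or the Mediator gene med28 (0 in both stage II libraries, against 50.6 and 50.9 FPKM at stage I), can be listed at 0 through a failed estimate, so no absence is drawn from a 0. The initiation factor gene eif1axb was detected at both stages, at 0.389 and 0.829 FPKM at stage II, against 154 and 130.2 FPKM at stage I (log2 fold change -6.48 ± 0.18, adjusted p = 1.2e-07). Its paralog eif1axa was at 225 and 242 FPKM at stage II, against 373 and 343 FPKM at stage I, and how reads of the pair were divided is not known. The acyl carrier protein gene ndufab1a, part of complex I, fell to 1.06 and 3.33 FPKM at stage II, against 184 and 182 FPKM at stage I. As deposited, rpp21 alone of these genes was also called lower in WT. There fbxl14a rose, with 51.9 and 49.3 FPKM at stage II, against 16.9 and 16.3 FPKM at stage I. In WT msrb1b was at 37.4 and 37.9 FPKM at stage II, against 36.6 and 37.4 FPKM at stage I. Levels of eif1axb were low at both WT stages, at 1.45 and 1.83 FPKM at stage II, against 0.589 and 0.616 FPKM at stage I.

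A still larger fall in mutants was measured for 8 genes known only by clone names. Of these, 6 were also lower at stage II in WT and 2 were higher. These are given here after their values were seen, and no role is assigned to them. The gene si:dkeyp-20e4.8 (ENSDARG00000092702) was at 2.44 and 3.53 FPKM at stage II, against 6317 and 6922 FPKM at stage I of mutants (log2 fold change -10.71 ± 0.18, adjusted p = 8.8e-09), and at 78.2 and 100.3 FPKM at stage II, against 5857 and 7722 FPKM at stage I of WT. It was thus among the most abundant messages of stage I in both genotypes and scarce at stage II of mutants. The similarly named si:dkey-241l7.3 and si:dkey-241l7.4 ran in opposite directions in the genotypes. The second of these was at 2.26 and 3.18 FPKM at stage II, against 848 and 837 FPKM at stage I of mutants, and at 520.4 and 357 FPKM at stage II, against 9.1 and 10.9 FPKM at stage I of WT (interaction -13.14 ± 0.25, adjusted p = 3.1e-08).

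**Figure D2:**
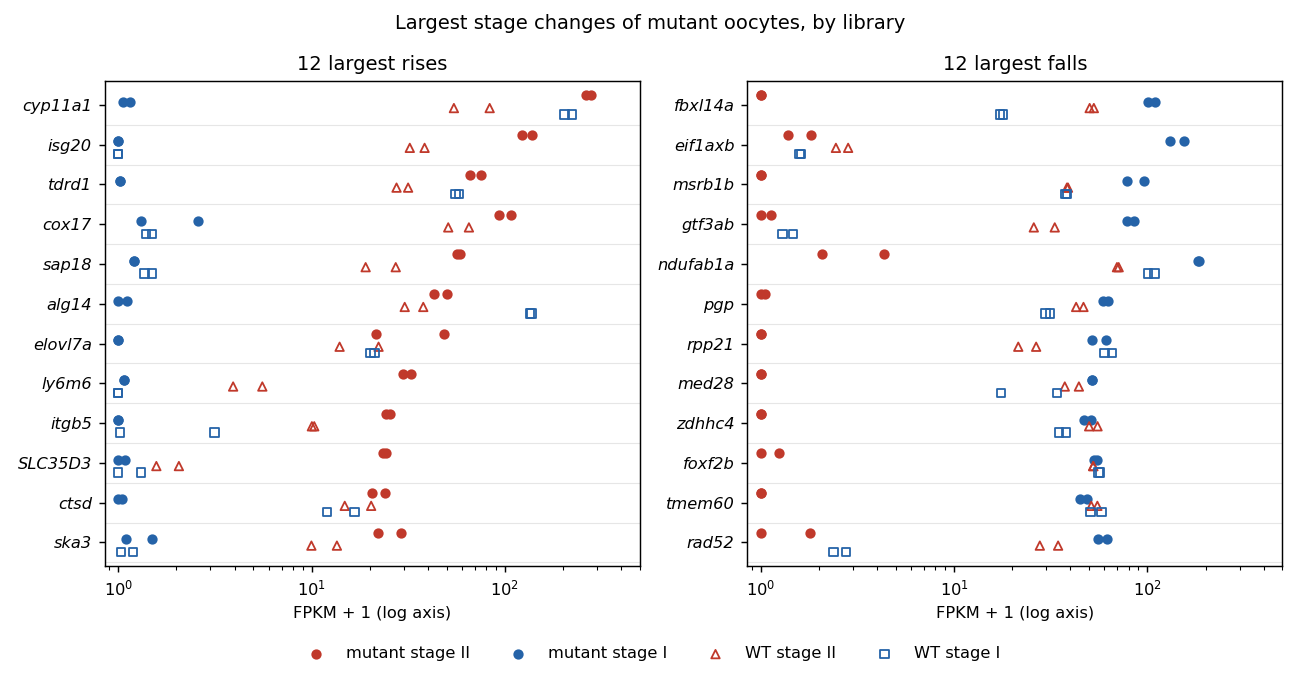
Level of the 12 largest rises (left panel) and 12 largest falls (right panel) among genes with a characterized name, in each of the 8 libraries, as FPKM + 1 on a log axis, with a group's 2 libraries as 2 points. In each row red circles are mutant stage II, blue circles mutant stage I, and open triangles WT stage II and open squares WT stage I. Red and blue circles never overlap because only genes with non-overlapping mutant libraries were chosen. In WT several of the genes, such as ctsd and foxf2b, are at a like level at both stages.

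Germ plasm messages were mostly lower at stage II. Of 20 genes of the Balbiani body and germ plasm list, 13 fell and 4 rose as deposited, beside 19.9% and 50.1% of all genes tested. The counts were 14 and 2 after median-of-ratios scaling, beside 32.8% and 31.7% of all genes, and 10 and 2 after quantile normalization. The median was -0.51, against 0.35 for all genes. The RNA-binding gene nanos3, needed to keep germ cells, was at 146 and 145 FPKM at stage II, against 352 and 337 FPKM at stage I (log2 fold change -1.23 ± 0.07, adjusted p = 3.2e-06). The message of dazl, a germ granule protein, fell by 1.04 on the log2 scale (adjusted p = 3.1e-05), and dnd1, which shields germ cell messages from microRNAs, was at 41.6 and 38.8 FPKM at stage II, against 58.6 and 64 FPKM at stage I. The carbonic anhydrase gene ca15b, a Balbiani body message, fell furthest of the list as deposited, at 339 and 377 FPKM at stage II, against 1747 and 1759 FPKM at stage I (log2 fold change -2.29 ± 0.10, adjusted p = 1.5e-06).

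The gene buc, whose protein organizes the Balbiani body, was at 629 and 582 FPKM at stage II, against 876 and 970.4 FPKM at stage I (log2 fold change -0.61 ± 0.09, adjusted p = 0.0005), a fall that quantile normalization turned to 0.04 (adjusted p = 0.75). Against the list, ddx4 (vasa), a helicase gene, rose, with 98.3 and 104 FPKM at stage II, against 48.5 and 50.4 FPKM at stage I (log2 fold change 1.02 ± 0.12, adjusted p = 0.00014). The cytolinker gene macf1a also rose, at 5.5 and 6.9 FPKM at stage II, against 1.93 and 1.39 FPKM at stage I.

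Of 16 piRNA genes, which silence transposons in germ cells, 7 rose (43.8%) and 4 fell (25%) as deposited, near the 50.1% and 19.9% of all genes. After median-of-ratios scaling 2 rose (12.5%) and 6 fell (37.5%), beside 31.7% and 32.8%. Beside tdrd1 and ddx4, the Tudor gene tdrd5 fell, at 5.28 and 5.51 FPKM at stage II, against 23.7 and 25 FPKM at stage I (log2 fold change -1.99 ± 0.10, adjusted p = 2e-06). The zinc finger gene gtsf1, a Piwi partner, was at 282 and 281 FPKM at stage II, against 873 and 863 FPKM at stage I (log2 fold change -1.62 ± 0.18, adjusted p = 7.6e-05). Of 13 meiotic prophase genes, 3 of which reached 1 FPKM at 1 stage only, 5 rose and 6 fell (2 and 7 after median-of-ratios scaling). Those that fell included the synaptonemal complex gene syce2, at 19.8 and 19.7 FPKM at stage II, against 50.4 and 42.4 FPKM at stage I, and the axis gene sycp2, tested through stage I alone, at 0.463 and 0.561 FPKM at stage II, against 3.9 and 3.39 FPKM at stage I. The recombination gene brca2 rose by log2 1.21 ± 0.12 (adjusted p = 4.2e-05).

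Egg coat messages fell, but by unequal amounts. Of 21 zona pellucida genes, 16 fell and 1 rose, with 18 and 0 after median-of-ratios scaling. Quantile normalization, which evens out the highest levels, instead gave 7 falls and 8 rises. The whole list held 2.31% and 2.24% of the summed FPKM at stage II, against 2.9% and 2.92% at stage I. All 7 tested ZP2 genes fell as deposited, with a median of -1.79, while the 12 ZP3 genes had 7 falls, 1 rise and a median of -0.41. After quantile normalization 5 ZP2 genes fell and 1 rose, while 7 ZP3 genes rose. The subfamilies were told apart after their values were seen.

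Among the ZP2 genes, zp2.5 was at 477 and 470.2 FPKM at stage II, against 1704 and 1667 FPKM at stage I (log2 fold change -1.83 ± 0.07, adjusted p = 9.3e-07), and it fell under all 3 scalings. The change was larger in zp2.1, at 79.5 and 68.3 FPKM at stage II, against 630.0 and 571 FPKM at stage I (log2 fold change -3.01 ± 0.22, adjusted p = 1.2e-05). The ZP3 gene zp3f.2 differed between replicates, at 64.2 and 109 FPKM at stage II, against 0.0531 and 52.7 FPKM at stage I (adjusted p = 0.052). The egg coat genes include close copies, and how the authors' counting divided reads between them is not known.

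Messages that keep maternal RNA silent or mark it for decay were split. Of 29, 10 rose and 12 fell, with 3 and 14 after median-of-ratios scaling, and 8 of each after quantile normalization. The 2 members with the highest mean level both fell. The deadenylation adaptor gene btg4 was at 491 and 423 FPKM at stage II, against 1491 and 1259 FPKM at stage I (log2 fold change -1.59 ± 0.10, adjusted p = 7.7e-06), and the repressor gene zar1, needed for egg development, was at 641 and 597 FPKM at stage II, against 1659 and 1705 FPKM at stage I (log2 fold change -1.44 ± 0.11, adjusted p = 1.3e-05). The AU-rich element binding gene zfp36l2 was close to 0 at stage II, with 0.589 and 0.506 FPKM at stage II, against 27.2 and 30.7 FPKM at stage I (log2 fold change -4.27 ± 0.12, adjusted p = 1e-07). Members that rose included the deadenylase genes cnot6b and pan2, by log2 1.39 ± 0.17 and 1.05 ± 0.15 (adjusted p = 0.00014 and 0.00035).

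Of 12 early oocyte transcription factor genes, 5 rose and 7 fell (1 and 7 after median-of-ratios scaling). The gene figla, which in mouse switches on egg coat genes, was at 57.8 and 52.7 FPKM at stage II, against 121 and 103 FPKM at stage I (log2 fold change -1.0 ± 0.12, adjusted p = 0.00012). The 5S rRNA factor gene gtf3ab fell furthest, at 0.134 and 0 FPKM at stage II, against 83.8 and 77.1 FPKM at stage I (log2 fold change -6.26 ± 0.17, adjusted p = 8.7e-08). The Polycomb partner gene rybpb rose by log2 1.27 ± 0.13 (adjusted p = 6.5e-05). Of 12 maternal activators of the zygotic genome, 3 rose and 2 fell, with 1 and 6 after median-of-ratios scaling. The acetyltransferase gene ep300b was at 6.78 and 6.68 FPKM at stage II, against 1.6 and 1.98 FPKM at stage I (log2 fold change 1.47 ± 0.16, adjusted p = 6.8e-05). Of 6 TGF-beta and BMP ligand genes, 1 rose and 2 fell as deposited, and 5 fell after median-of-ratios scaling. The Nodal partner gene gdf3 (Vg1) fell as deposited, with 704 and 687 FPKM at stage II, against 1276 and 1169 FPKM at stage I (log2 fold change -0.81 ± 0.08, adjusted p = 4.9e-05), but not after quantile normalization (-0.07, adjusted p = 0.39).

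Genes for the division machinery that the egg will use moved in several ways. Of 25 genes of meiotic arrest and maturation, 4 rose and 9 fell (2 and 15 with median-of-ratios scaling, 9 and 6 with quantile normalization). Cyclin B1, the activator of Cdk1, was at 816 and 748 FPKM at stage II, against 1389 and 1516 FPKM at stage I (log2 fold change -0.89 ± 0.09, adjusted p = 5.1e-05), with -0.05 after quantile normalization (adjusted p = 0.72). The kinase gene plk1 rose under all 3 scalings, at 518 and 535 FPKM at stage II, against 309 and 325 FPKM at stage I (log2 fold change 0.73 ± 0.07, adjusted p = 3.6e-05). Of 21 spindle checkpoint and chromosomal passenger genes, 12 rose (57.1%) and 3 fell (14.3%), near the 50.1% and 19.9% of all genes. After median-of-ratios scaling 7 rose and 7 fell (33.3% each), near the 31.7% and 32.8% of all genes. Quantile normalization gave 12 rises and 4 falls, beside 35.5% and 27.8% of all genes. The kinetochore motor gene cenpe was at 42.6 and 52.6 FPKM at stage II, against 13.9 and 14.8 FPKM at stage I, and the spindle pole gene numa1 at 17.7 and 16.8 FPKM at stage II, against 3.43 and 4.09 FPKM at stage I (log2 fold changes 1.65 ± 0.12 and 1.94 ± 0.16, adjusted p = 1.4e-05 and 2e-05).

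Condensin and cohesin genes, whose products shape and hold chromosomes, rose almost together. Of 17 members, 15 rose and 1 fell as deposited, 10 and 1 after either other scaling, and the median was 0.93, against 0.35 for all genes. The condensin gene smc2 was at 43 and 45 FPKM at stage II, against 13.9 and 15.9 FPKM at stage I (log2 fold change 1.51 ± 0.12, adjusted p = 1.6e-05), and the cohesin loader gene nipblb at 12 and 12.1 FPKM at stage II, against 3.27 and 3.34 FPKM at stage I (log2 fold change 1.60 ± 0.17, adjusted p = 6.4e-05). The 1 member that fell was stag3, a cohesin subunit used in meiosis, at 4.09 and 2.9 FPKM at stage II, against 7.77 and 7.66 FPKM at stage I (log2 fold change -0.97 ± 0.17, adjusted p = 0.0011).

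Of 37 DNA replication genes, 27 rose and 4 fell (16 and 9 with median-of-ratios scaling, 31 and 4 with quantile normalization). The GINS helicase gene gins4 was at 77.1 and 81.8 FPKM at stage II, against 14.9 and 15.9 FPKM at stage I (log2 fold change 2.29 ± 0.12, adjusted p = 2.5e-06), and the MCM helicase gene mcm5 at 224 and 222 FPKM at stage II, against 77.4 and 84.2 FPKM at stage I (log2 fold change 1.45 ± 0.07, adjusted p = 2e-06). Ribonucleotide reductase ran against them. The table holds 2 genes named rrm2, and ENSDARG00000020711 was at 278 and 268 FPKM at stage II, against 718 and 670.1 FPKM at stage I (log2 fold change -1.34 ± 0.07, adjusted p = 3.2e-06). The other, ENSDARG00000078069, was at 349 and 327 FPKM at stage II, against 766 and 694 FPKM at stage I (log2 fold change -1.11 ± 0.14, adjusted p = 0.00018).

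Most histone genes and their partners fell under all 3 scalings. Of 62 genes, 8 of which reached 1 FPKM at 1 stage only, 37 fell and 5 rose, 43 and 2 after median-of-ratios scaling and 39 and 5 after quantile normalization, and the median was -0.97. The oocyte linker histone gene h1m was at 742 and 782 FPKM at stage II, against 1749 and 1607 FPKM at stage I (log2 fold change -1.14 ± 0.10, adjusted p = 2.3e-05). The histone messenger binding gene slbp2 was at 591 and 589 FPKM at stage II, against 1639 and 1566 FPKM at stage I, and the histone storage gene npm2b at 973 and 997 FPKM at stage II, against 2203 and 2061 FPKM at stage I. Many histone genes are near-identical copies whose reads cannot be assigned with certainty, and most replication-dependent histone messages lack the poly(A) tail that the libraries select.

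Messages of the cytosolic ribosome fell together as deposited. Of 84 ribosomal protein genes, 71 fell and 1 rose as deposited and 79 and 0 after median-of-ratios scaling. Quantile normalization left 36 falls and 14 rises. An example of a doubtful 0 is rps15, at 313 and 318 FPKM at stage II, against 681 and 0 FPKM at stage I, which was not called (adjusted p = 0.21). The genes held 6.62% and 7.17% of the summed FPKM at stage II, against 10.6% and 10.2% at stage I. The largest fall was that of rps29, a short subunit of the small ribosomal particle, at 795 and 914 FPKM at stage II, against 4046 and 4371 FPKM at stage I (log2 fold change -2.30 ± 0.15, adjusted p = 7.4e-06). Members such as rpl38 and rpl29 were also lower at stage II under all 3 scalings (log2 fold changes -1.81 ± 0.13 and -1.86 ± 0.13 as deposited, adjusted p = 1.2e-05 and 1.2e-05).

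The rest of the protein synthesis machinery was split. Of 73 mitochondrial ribosomal protein genes, 24 rose and 21 fell, and 7 and 43 after median-of-ratios scaling. Of 71 translation factors, 27 rose and 21 fell (11 and 39 with median-of-ratios scaling, 29 and 21 with quantile normalization). The start codon factor gene eif1b was at 535 and 511 FPKM at stage II, against 1837 and 1748 FPKM at stage I (log2 fold change -1.78 ± 0.07, adjusted p = 1e-06), while the release factor gene gspt1 rose by log2 1.59 ± 0.14 (adjusted p = 2.9e-05). Of 63 ribosome biogenesis and RNA polymerase I and III genes, 33 rose (52.4%) and 12 fell (19%), near the 50.1% and 19.9% of all genes. After median-of-ratios scaling 17 rose (27%) and 29 fell (46%), beside 31.7% and 32.8%. Quantile normalization gave 25 rises and 16 falls. The nucleolar gene nop58 was at 168 and 169 FPKM at stage II, against 44.1 and 48.2 FPKM at stage I (log2 fold change 1.85 ± 0.10, adjusted p = 3.2e-06), and the RNA polymerase III gene polr3f at 0 and 0.0538 FPKM at stage II, against 41.2 and 35 FPKM at stage I (adjusted p = 7.6e-08).

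Splicing genes were also looked at by the kind of protein they encode. Over the list, 28 of 69 rose and 25 fell (17 and 37 with median-of-ratios scaling, 25 and 22 with quantile normalization). Of 15 Sm and LSm genes, which encode the small proteins that ring the snRNAs, 13 fell and 1 rose as deposited and 14 and 0 after median-of-ratios scaling. Of 24 PRPF, SF3 and U5 genes, 16 rose and 5 fell (13 and 7 after median-of-ratios scaling). The Sm gene snrpd1 was at 179.6 and 197 FPKM at stage II, against 342 and 329.6 FPKM at stage I (log2 fold change -0.83 ± 0.10, adjusted p = 0.00015). The gene of the large core protein prpf8 was at 39.1 and 39.1 FPKM at stage II, against 8.46 and 9.62 FPKM at stage I (log2 fold change 2.00 ± 0.11, adjusted p = 4.2e-06). These subgroups were formed after the values were seen, and the part of transcript length was not tested.

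Nuclear pore and transport genes rose more often than all genes. Of 53, 40 rose (75.5%) and 5 fell (9.43%), beside 50.1% and 19.9% of all genes, with a median of 0.64, against 0.35. After median-of-ratios scaling 23 rose (43.4%) and 8 fell (15.1%), beside 31.7% and 32.8%, with a median of 0.24, against -0.002. The nuclear basket gene tprb was at 40.2 and 43.4 FPKM at stage II, against 13.3 and 13.6 FPKM at stage I (log2 fold change 1.57 ± 0.14, adjusted p = 3e-05), and the nucleoporin gene nup93 at 36.6 and 38.1 FPKM at stage II, against 17.7 and 16.8 FPKM at stage I (log2 fold change 1.07 ± 0.09, adjusted p = 2e-05).

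**Figure D3:**
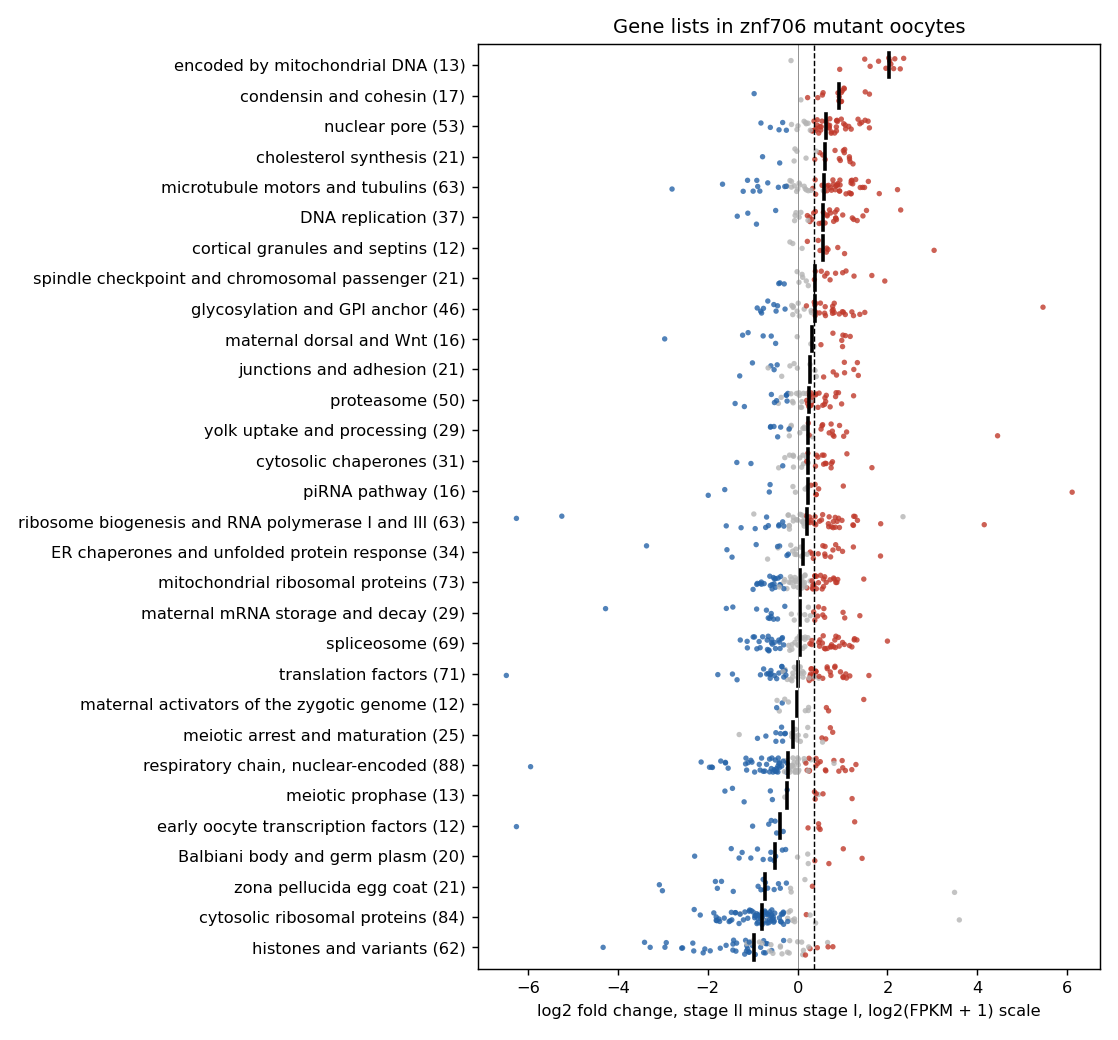
Log2 fold change (stage II minus stage I, mutant libraries, log2(FPKM + 1) scale) of each tested gene of 30 gene lists with at least 12 tested genes, 1 row a list, with the number of tested genes in brackets. Red points were called higher, blue points lower and grey points neither, black bars are the medians, and the dashed line is the median of all 13062 genes at 0.35. Most genes of mitochondrial DNA and of condensin and cohesin lie to the right of the dashed line, and ribosomal protein and histone genes to the left.

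The genes encoded by mitochondrial DNA had the highest median of the 33 lists that are not marker lists. Of 13, 12 rose and 0 fell under all 3 scalings, 0 also at an unadjusted p under 0.05 in limma, and the median was 2.03 as deposited. They held 1.76% and 1.83% of the summed FPKM at stage II, against 0.44% and 0.377% at stage I. The cytochrome oxidase gene mt-co1 was at 2252 and 2049.8 FPKM at stage II, against 486 and 358 FPKM at stage I (log2 fold change 2.36 ± 0.22, adjusted p = 3.9e-05), and mt-cyb at 796 and 928 FPKM at stage II, against 209.5 and 147 FPKM at stage I (log2 fold change 2.28 ± 0.24, adjusted p = 7.2e-05). The exception was mt-atp8, which overlaps mt-atp6, at 313 and 376 FPKM at stage II, against 343 and 421 FPKM at stage I (adjusted p = 0.73). WT oocytes showed the same split, with 12 of 13 higher at stage II. There mt-atp8 was at 373 and 157 FPKM at stage II, against 548 and 363 FPKM at stage I (adjusted p = 0.06), and it was called lower in WT after median-of-ratios scaling (log2 fold change -1.09, adjusted p = 0.033). The interaction was called by limma for 0 of 13 as deposited and after median-of-ratios scaling, 2 at an unadjusted p under 0.05, and for 4 after quantile normalization.

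Respiratory genes of the nucleus did not follow them. Of 88, 43 fell and 18 rose (63 and 8 with median-of-ratios scaling, 28 and 27 with quantile normalization). Among complex I genes, 5 of 8 core subunits rose and 2 fell, while 4 of 31 other subunits rose and 18 fell, a division made after the values were seen. After median-of-ratios scaling 2 core subunits rose and 2 fell, and 2 of the others rose and 28 fell. The small accessory gene ndufa1 was at 128 and 142 FPKM at stage II, against 511 and 510.1 FPKM at stage I (log2 fold change -1.91 ± 0.14, adjusted p = 1.2e-05).

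**Figure D4:**
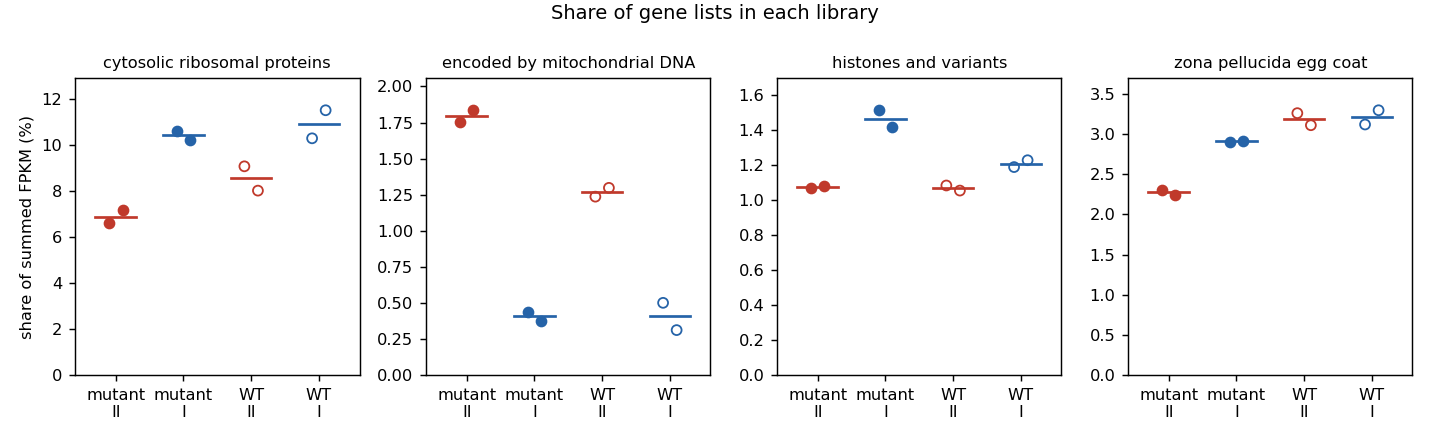
Share of the summed FPKM of each library held by 4 gene lists, in percent, with 1 point a library and a bar at the mean of the 2. Groups run from left to right as mutant stage II, mutant stage I, WT stage II and WT stage I. The share of ribosomal protein genes was lower at stage II in both genotypes, and that of genes of mitochondrial DNA higher.

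Protein quality control showed no single direction. Of 50 proteasome genes, 27 rose (54%) and 9 fell (18%), near the 50.1% and 19.9% of all genes. After median-of-ratios scaling 8 rose (16%) and 17 fell (34%), beside 31.7% and 32.8%. Quantile normalization gave 22 rises and 12 falls. The catalytic core gene psmb5 was at 29.1 and 33.2 FPKM at stage II, against 71.4 and 72.3 FPKM at stage I (log2 fold change -1.18 ± 0.10, adjusted p = 2.6e-05). The list member psmd5 rose by log2 1.25 ± 0.11 (adjusted p = 3.4e-05). Of 31 cytosolic chaperones, 15 rose and 3 fell (5 and 12 with median-of-ratios scaling, 13 and 4 with quantile normalization). The chaperonin gene cct3 was at 188 and 188 FPKM at stage II, against 84.6 and 90.3 FPKM at stage I (log2 fold change 1.1 ± 0.06, adjusted p = 4.8e-06). Of 34 genes of protein folding in the endoplasmic reticulum, 15 rose and 8 fell (8 and 16 with median-of-ratios scaling, 19 and 8 with quantile normalization). The disulfide isomerase gene p4hb, also a subunit of collagen hydroxylase, was at 54.7 and 77.5 FPKM at stage II, against 668 and 691 FPKM at stage I (log2 fold change -3.36 ± 0.16, adjusted p = 1.7e-06).

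Of 29 genes that serve yolk uptake, 14 rose (48.3%) and 6 fell (20.7%), near the 50.1% and 19.9% of all genes. After median-of-ratios scaling 9 rose (31%) and 11 fell (37.9%), near the 31.7% and 32.8% of all genes. The yolk receptor gene vldlr rose under all 3 scalings, with 270.3 and 249 FPKM at stage II, against 116 and 126 FPKM at stage I (log2 fold change 1.09 ± 0.08, adjusted p = 9.6e-06). The endocytic adaptor gene dab2, which serves receptors of this family, was at 330.2 and 309 FPKM at stage II, against 186 and 178 FPKM at stage I (log2 fold change 0.81 ± 0.08, adjusted p = 4.1e-05). The lysosomal protease gene ctsd, whose enzyme cleaves vitellogenin, was at 19.7 and 23.1 FPKM at stage II, against 0 and 0.0412 FPKM at stage I (log2 fold change 4.45 ± 0.21, adjusted p = 1.9e-06). In WT ctsd was present at both stages, with 19.3 and 13.8 FPKM at stage II and 15.7 and 11 FPKM at stage I.

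Of 12 cortical granule and septin genes, 9 rose and 0 fell (5 and 1 with median-of-ratios scaling, 7 and 3 with quantile normalization). As deposited, 0 fell at an unadjusted p under 0.05 in limma as well. The membrane fusion gene snap23.1 was at 92.8 and 97.1 FPKM at stage II, against 50.5 and 50.7 FPKM at stage I, and SEPTIN2 at 42.6 and 46.7 FPKM at stage II, against 19.1 and 23.3 FPKM at stage I (log2 fold changes 0.89 ± 0.07 and 1.04 ± 0.12, adjusted p = 2e-05 and 9.3e-05). Of 21 cholesterol synthesis genes, 14 rose and 2 fell (11 and 4 with median-of-ratios scaling, 12 and 4 with quantile normalization). The early enzyme gene hmgcs1 was at 47.3 and 48.7 FPKM at stage II, against 20.2 and 21.9 FPKM at stage I (log2 fold change 1.15 ± 0.09, adjusted p = 1.5e-05). The transcriptional activator gene of the pathway, srebf2, rose by log2 1.15 ± 0.14, and the rate-limiting reductase gene hmgcrb by log2 1.04 ± 0.12 (adjusted p = 0.00015 and 0.00012).

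Of 46 glycosylation and GPI anchor genes, 27 rose (58.7%) and 9 fell (19.6%), and 16 did each (34.8%) after median-of-ratios scaling, shares near those of all genes. Among them pigo was at 36.8 and 41.6 FPKM at stage II, against 11.6 and 15.1 FPKM at stage I (log2 fold change 1.50 ± 0.14, adjusted p = 3.8e-05). Of 5 steroid genes tested, 2 of which reached 1 FPKM at 1 stage only, 2 rose and 3 fell, too few to set against the shares of all genes. Beside cyp11a1, the next enzymes of the pathway fell, with cyp17a1 at 73.3 and 69.2 FPKM at stage II, against 96.2 and 105 FPKM at stage I, and hsd3b2 at 132 and 124 FPKM at stage II, against 184 and 189.5 FPKM at stage I (log2 fold changes -0.49 ± 0.07 and -0.54 ± 0.08, adjusted p = 0.00047 and 0.00033). Of 11 retinoic acid genes, 3 of which reached 1 FPKM at 1 stage only, 5 rose and 3 fell (4 and 6 after median-of-ratios scaling). The receptor gene rarab was at 35.5 and 34.2 FPKM at stage II, against 13.1 and 16.8 FPKM at stage I (log2 fold change 1.18 ± 0.18, adjusted p = 0.00041).

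Of 63 microtubule genes, 9 of which reached 1 FPKM at 1 stage only, 36 rose (57.1%) and 12 fell (19.0%), near the 50.1% and 19.9% of all genes. After median-of-ratios scaling 29 rose (46.0%) and 19 fell (30.2%), beside 31.7% and 32.8%. By a division made after the values were seen, 21 of 28 kinesin genes rose and 4 fell (15 and 6 after median-of-ratios scaling). In the same division 5 of 6 dynein light chain genes fell and 1 rose, as deposited and after median-of-ratios scaling. The tubulin gene tuba8l was at 210.1 and 224 FPKM at stage II, against 44.2 and 47.2 FPKM at stage I (log2 fold change 2.22 ± 0.07, adjusted p = 2.2e-07), and the light chain gene dynll1 at 72.1 and 64.2 FPKM at stage II, against 528 and 432 FPKM at stage I (log2 fold change -2.79 ± 0.14, adjusted p = 2.8e-06).

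Of 16 genes of the maternal dorsal and Wnt list, 7 rose and 6 fell (6 and 7 after median-of-ratios scaling). The dorsal message wnt8a was at 3.88 and 2.2 FPKM at stage II, against 32.5 and 27.1 FPKM at stage I (log2 fold change -2.96 ± 0.27, adjusted p = 3.3e-05). The dorsal determinant gene hwa (huluwa) was at 36.8 and 42.2 FPKM at stage II, against 78.9 and 93 FPKM at stage I, and grip2a, which acts on vegetal microtubules in dorsal axis formation, at 16 and 15.7 FPKM at stage II, against 33.2 and 44.4 FPKM at stage I (log2 fold changes -1.10 ± 0.12 and -1.22 ± 0.13, adjusted p = 8.4e-05 and 7.5e-05). The Wnt transducer gene dvl3a rose by log2 1.17 ± 0.12 (adjusted p = 4.7e-05). Of 21 junction and adhesion genes, 8 rose and 5 fell (7 and 10 after median-of-ratios scaling). The tight junction scaffold gene tjp1a was at 17.8 and 18.3 FPKM at stage II, against 7.01 and 5.94 FPKM at stage I (log2 fold change 1.35 ± 0.17, adjusted p = 0.00017).

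To ask which stage changes were those of WT oocytes too, the same fit gave stage II against stage I in WT, where 7980 of the 13062 genes were called (61.1%), 5070 higher (38.8%) and 2910 lower (22.3%). After median-of-ratios scaling 7905 were called (60.5%), 3966 higher (30.4%) and 3939 lower (30.2%). The 2 contrasts share no library. Across genes the changes correlated at r = 0.411 and rho = 0.525, a description over genes that are not independent. Genes higher in both numbered 3903, 59.7% of the mutant rises and 77.0% of the WT rises. Genes lower in both numbered 1454, 55.9% of the mutant falls and 50.0% of the WT falls. The Balbiani body and germ plasm list had 12 falls and 4 rises of 20 in WT as deposited, and histone genes 35 and 5 of 62. DNA replication genes had 23 rises and 4 falls of 37 in WT, and nuclear pore genes 37 and 4 of 53. The test of the difference itself, the interaction, called 4866 genes (37.3%), 3159 positive (24.2%) and 1707 negative (13.1%). Positive calls were 64.9% of these as deposited, 47.7% with median-of-ratios scaling and 53.1% once quantiles were matched.

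In several lists interactions were called mostly in 1 direction under all 3 scalings. Of 17 condensin and cohesin genes, which rose in both genotypes (15 of 17 in each), the interaction was called negative for 5 and positive for 0 as deposited, and 7 and 0 after each other scaling, and in each of the first 5 the rise was larger in WT. The condensin gene smc4, for example, was at 77.6 and 76.6 FPKM at stage II, against 35.4 and 38.7 FPKM at stage I of mutants, and at 82.8 and 97.6 FPKM at stage II, against 25.2 and 24.9 FPKM at stage I of WT (interaction -0.77 ± 0.13, adjusted p = 0.003). The maternal dorsal and Wnt list had 5 negative and 0 positive calls of 16 as deposited, 9 and 0 with median-of-ratios scaling and 6 and 0 with quantile normalization. Among them hwa, which fell in mutants, was at 59.1 and 57.1 FPKM at stage II, against 56.8 and 69.6 FPKM at stage I of WT (interaction -0.99 ± 0.17, adjusted p = 0.0032), and grip2a was at 26.5 and 25.1 FPKM at stage II, against 25.3 and 27 FPKM at stage I of WT (interaction -1.20 ± 0.19, adjusted p = 0.0018). Cytosolic chaperones had 9 negative calls and 1 positive call of 31 as deposited, 16 and 1 after median-of-ratios scaling and 9 and 1 after quantile normalization. Among further lists with more negative than positive calls under all 3 scalings, ribosome biogenesis and polymerase genes had 17 and 6 of 63 as deposited, 26 and 5 with median-of-ratios scaling and 21 and 6 with quantile normalization. Splicing genes had 12 and 4 of 69, 25 and 3, and 19 and 5 in that order, and nuclear pore genes 7 and 3 of 53, 18 and 2, and 15 and 2. As deposited, the 7 negative calls of nuclear pore genes were near the share of all genes, 13.1%. The Balbiani body and germ plasm list had 6 negative and 2 positive calls of 20, 8 and 1, and 5 and 2 in the same order. Other lists with more negative calls under all 3 scalings are not printed. Cortical granule and septin genes ran the other way, with 6 positive calls and 1 negative call of 12, and 4 and 1 after median-of-ratios scaling. The synaptotagmin gene syt11a, of a family that acts in vesicle fusion, was at 9.25 and 9.26 FPKM at stage II, against 0.408 and 0.107 FPKM at stage I of mutants, and at 1.52 and 1.03 FPKM at stage II, against 0.276 and 0.153 FPKM at stage I of WT (interaction 2.14 ± 0.26, adjusted p = 0.00051). Glycosylation and GPI anchor genes had 16 positive and 3 negative calls of 46 as deposited but 10 of each after median-of-ratios scaling. In all tested genes 24.2% of interactions were called positive and 13.1% negative as deposited, and 17.6% and 19.3% with median-of-ratios scaling, and 20.4% and 18.1% with quantile normalization.

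**Figure D5:**
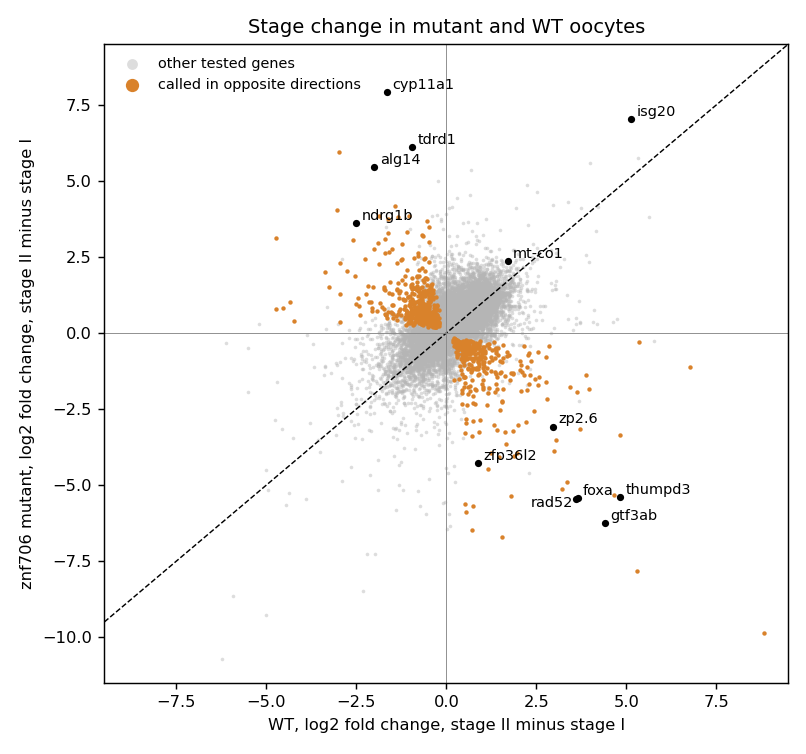
Log2 fold change from stage I to stage II of the 13062 tested genes in mutant libraries (vertical axis) and WT libraries (horizontal axis), on the log2(FPKM + 1) scale. Orange points are the 807 genes called in opposite directions in the 2 genotypes, and the dashed line marks equal changes. The named genes in the upper left and lower right corners, such as cyp11a1 and gtf3ab, changed in opposite directions.

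Opposite calls were made for 807 genes, 487 higher in mutants and lower in WT and 320 lower in mutants and higher in WT. Several of these traded their levels. The egg coat gene zp2.6 was at 87.7 and 87.1 FPKM at stage II, against 742 and 747 FPKM at stage I of mutants, and at 759 and 692 FPKM at stage II, against 84.4 and 100.0 FPKM at stage I of WT (interaction -6.04 ± 0.13, adjusted p = 4.8e-08). Both mutant stage II libraries lay within the range of WT stage I, and the mutant stage I libraries within that of WT stage II. For gtf3ab WT had 24.9 and 32.2 FPKM at stage II and 0.299 and 0.47 FPKM at stage I (interaction -10.66 ± 0.24, adjusted p = 5.6e-08).

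The tRNA methyltransferase gene thumpd3 was at 0.0464 and 0.0454 FPKM at stage II, against 42.3 and 42.9 FPKM at stage I of mutants, and at 29.4 and 28.1 FPKM at stage II, against 0.0409 and 0.0605 FPKM at stage I of WT (interaction -10.21 ± 0.19, adjusted p = 2.9e-08). The recombination gene rad52 and the forkhead gene foxa followed the same course (interactions -9.06 ± 0.37 and -9.07 ± 0.28, adjusted p = 1.1e-06 and 2.3e-07). The gene ndrg1b, of the family named for regulation by N-myc, crossed the other way, at 38.6 and 41.2 FPKM at stage II, against 2.88 and 1.88 FPKM at stage I of mutants, and at 8.54 and 7.04 FPKM at stage II, against 50.6 and 47.2 FPKM at stage I of WT (interaction 6.12 ± 0.23, adjusted p = 6e-07).

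The second rrm2 gene, ENSDARG00000078069, was near 0 in WT at stage I alone, with 283 and 214 FPKM at stage II, against 1.07 and 1.51 FPKM at stage I of WT (interaction -7.87 ± 0.20, adjusted p = 7.3e-08). Single genes of the lists above also differed, among them zfp36l2, at 47.6 and 50.8 FPKM at stage II, against 24.6 and 27.8 FPKM at stage I of WT (interaction -5.16 ± 0.17, adjusted p = 2.9e-07), and tdrd5, at 46.9 and 46.1 FPKM at stage II, against 19.6 and 21.3 FPKM at stage I of WT (interaction -3.13 ± 0.14, adjusted p = 1.7e-06). The gene eif1b rose in WT, to 872 and 839 FPKM at stage II, against 430.0 and 411 FPKM at stage I (interaction -2.80 ± 0.11, adjusted p = 6.5e-07).

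At the extremes, 53 genes (0.406%) had at least 5 FPKM in both mutant stage II libraries and under 0.5 in both stage I libraries, and 67 (0.513%) were the reverse. On and off stand for these limits only. Of the 67, 31 were listed at 0 in both stage II libraries, and no absence is drawn from a 0. Of the 53 that came on, 7 did so in WT and 1 did the opposite, while 11 had at least 5 FPKM in all 4 WT libraries. Of the 67 that went off, 1 did so in WT and 6 did the opposite, while 30 had at least 5 FPKM in all 4 WT libraries. Those of the last kind include the forkhead gene foxf2b, at 0 and 0.242 FPKM at stage II, against 52 and 53.9 FPKM at stage I of mutants, and at 51.5 and 51.5 FPKM at stage II, against 56 and 55.1 FPKM at stage I of WT. The spindle gene dlgap5 was at 0.352 and 0.128 FPKM at stage II, against 46.9 and 53.4 FPKM at stage I of mutants, and at 67.7 and 76.7 FPKM at stage II, against 20.3 and 19.7 FPKM at stage I of WT. Genes shared with WT were isg20, sap18, ska3, vapb, rrp9, znf1162 and the unnamed BX511129.2.

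Some of these genes lie next to each other. On the gene order of the GRCz12tu assembly, which is not the build of the table, 97 of the 120 could be placed by name. Of these, 16 (16.5%) had another such gene as a neighbouring tested gene, against 1.48% of the other 11469 placed genes, and all 16 shared the direction of that neighbour. The longest run was of 5 genes that went off, tex2l, msrb1b, mlst8, pgp and zdhhc4. The phosphatase gene pgp was at 0 and 0.0486 FPKM at stage II, against 58.2 and 61.4 FPKM at stage I of mutants, and the TOR complex gene mlst8 was listed at 0 in both stage II libraries, against 14.4 and 14.7 FPKM at stage I. In WT all 5 were at 5 FPKM or more in all 4 libraries, pgp for example at 41.8 and 45.7 FPKM at stage II and 30.4 and 28.8 FPKM at stage I. The files do not show how overlapping genes of such a run were counted.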

How the data were processed

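The authors deposited 1 table of FPKM values for 8 RNA-seq libraries. Per the submitters' processing notes, reads were handled with Trim Galore, STAR 2.5.3a and Cufflinks 2.2.1 on danRer11, and no setting for strand, multi-mapped reads or scaling is given in the sources used here. Of 32197 entries for 32055 gene IDs, 24 repeats of the same values were dropped, and 103 gene IDs whose entries disagreed, at stage I and not at stage II, were left out. FPKM as deposited were put on a log2(FPKM + 1) scale, which understates changes of low genes. Genes at 1 FPKM or more in at least 2 of the 4 mutant libraries entered 1 limma fit over all 8 libraries (limma 3.58.1 in R 4.3.3, 4 group means, eBayes with a trend), with contrasts for the stage change in mutants, in WT and their difference. P-values were adjusted by Benjamini-Hochberg over all genes tested, and calls are at 0.05. With 2 libraries against 2 an exact permutation test of a single value cannot go below p = 0.333, so none was used, and the labels do not say that the libraries came from separate fish, so p-values measure the spread between these libraries. Gene names were those of the table, with 3483 taken from a reference name table. The fit was tested on simulated data.

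The libraries, gene lists and tests were chosen with earlier results of these data known. Genes were named by rule: znf706, the 12 largest rises and falls among genes averaging at least 10 FPKM at one stage with non-overlapping libraries and a call that held without each library, up to 7 genes a list, the 8 largest interactions in each direction, opposite calls, and on and off genes. Genes given beside these (nanos3, dazl, dnd1, dab2, pan2, slbp2, npm2b, stag3, mlst8, eif1axa, rps15, zp3f.2, mt-atp8 and clone names) were picked with their values in view. Alternatives were the pseudocount, the filter, 2 other scalings, the variance model, the libraries fitted, a replicate block, the fold threshold, the conflicting IDs and leaving out each library. Markers and list counts use the same table.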

Additional observations from a re-analysis of the deposited data

Results flagged for a closer look

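The stage change differed between mutant and WT oocytes for 4866 genes by limma's interaction term, which is a test of the difference itself with 2 libraries in each of the 4 groups. Further genes given above also had a called interaction that is not printed. Where it is printed, the interaction (mutant change minus WT change, log2 scale) was -13.14 ± 0.25 for si:dkey-241l7.4 and likewise negative for gtf3ab (-10.66 ± 0.24), thumpd3 (-10.21 ± 0.19), foxa (-9.07 ± 0.28) and rad52 (-9.06 ± 0.37). It was -7.87 ± 0.20 for the rrm2 gene ENSDARG00000078069, -6.04 ± 0.13 for zp2.6 and -5.16 ± 0.17 for zfp36l2. Smaller negative values were those of tdrd5 (-3.13 ± 0.14), eif1b (-2.80 ± 0.11), grip2a (-1.20 ± 0.19), hwa (-0.99 ± 0.17) and smc4 (-0.77 ± 0.13). Positive values were those of ndrg1b, at 6.12 ± 0.23, cyp11a1, at 9.59 ± 0.24 (adjusted p = 7.3e-08), and syt11a, at 2.14 ± 0.26. For gtf3ab, thumpd3, foxa and rad52 the lower group was stage II in mutants and stage I in WT, at low levels, where log2(FPKM + 1) understates a change.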

How the results depend on the processing

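The count of called genes stayed within 1.5 times its value under every alternative but one in mutants (9140 as deposited), in WT (7980) and for the interaction (4866). The exception was a required change of at least 2-fold, which left 3522 genes in mutants (2531 higher and 991 lower), 2508 in WT (1631 higher and 877 lower) and 2178 for the interaction (1383 positive and 795 negative). By direction, median-of-ratios scaling gave 4145 higher and 4285 lower in mutants, by its own construction, which removes the shift of the median gene. Leaving out each library in turn gave 7780 to 9184 calls in mutants, 6663 to 7814 in WT and 3539 to 4943 for the interaction, with a lone library assumed to vary like the other groups. Genes on and off numbered 20 and 37 at 10 and 0.25 FPKM, and 127 and 133 at 2 and 0.5 FPKM. Quantile normalization turned the median of the egg coat genes to 0.16, buc to 0.0444 and the uncalled mt-atp8 to 0.37, and the cause was not tested. Without single libraries mt-atp8 ranged from -0.29 to 0.0019 and rps15 from -1.11 to 8.31, its 2 stage I libraries being far apart. Among 110 genes given by value, 4 lost their mutant call under some alternative, buc, ccnb1 and gdf3 under quantile normalization and znf706 under 14 of 20 alternatives. The 16 interactions given kept their direction and call under every alternative run. The labels do not say whether replicate numbers pair libraries across groups. Same-numbered mutant libraries of the 2 stages deviated from their group means with r = -0.0482. A correlation over genes cannot show whether libraries of one number were prepared together. A fit with the replicate number as a block gave 9000 calls in mutants, 7828 in WT and 4607 for the interaction. In data simulated with the spread of these libraries, mutant calls recovered 29.9% of changes of log2 0.5, 79.1% of log2 1 and 98.5% of log2 2, and the interaction 4.48%, 55.2% and 97.0%. Few genes were changed in those data and many in these, so the shares need not hold here.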

Other observations

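Of the 53 genes on at stage II in mutants the interaction was called for 44, and of the 67 off for 63, counts that the choice of these genes by their mutant values favours. By the same rule WT had 32 genes on and 14 off at stage II. Of the genes below 0.5 FPKM, 13 of the 53 were listed at 0 in both stage I libraries and 31 of the 67 in both stage II libraries. Further neighbouring pairs that changed together were ANKRD66 with the Tudor gene tdrd6b and armt1 with zbtb2b, off at stage II, and rbm44 with the integrin gene itgb5, on at stage II.

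The mitochondrial quality control gene spata18, entered here as a testis marker, was at 114 and 112 FPKM at stage II, against 183 and 173 FPKM at stage I of mutants, and at 12.4 and 11.4 FPKM at stage II, against 19.5 and 21.5 FPKM at stage I of WT. The other 5 testis markers together stayed at 4.42 FPKM or less in every library. The fibronectin gene fn1a was at 1.49 and 1.18 FPKM at stage II, against 3.86 and 4.44 FPKM at stage I of mutants, and at 0.329 and 0.518 FPKM at stage II, against 0.371 and 0.349 FPKM at stage I of WT.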
